A study of Mus musculus with 6 samples.

Results

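Insulin-like growth factor (IGF) signalling was followed at the RNA level in C2C12 cells through 10 genes, which encode the ligands Igf1 and Igf2, the receptors Igf1r and Igf2r, the binding proteins Igfbp2, Igfbp3, Igfbp4, Igfbp5 and Igfbp6, and the noncoding RNA H19. The genes were chosen by name as members of the family and its imprinted locus, with earlier results of these data known. All 10 were found among the 25308 genes that had a count. C2C12 is a mouse line of muscle precursors, which stop dividing and join into myotubes with many nuclei when serum is lowered. There were 3 groups of 2 libraries each, namely myoblasts taken near confluence at Day 0 in growth medium, and myotubes and reserve cells, both taken at Day 7 from the same kind of differentiating culture in horse-serum medium and parted from each other by mild trypsin treatment. Reserve cells are the mononucleated cells that do not fuse. No gene was altered in any group, and all the libraries came from 1 cell line, so time, serum and cell state cannot be told apart between Day 0 and Day 7. The labels give Day 7, whereas the methods of the study give a shorter time for mature myotubes.

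IGF1 and IGF2 are secreted peptides that bind the tyrosine kinase receptor encoded by Igf1r, which signals through insulin receptor substrates, PI3 kinase, AKT and mTOR. Igf2r encodes the mannose 6-phosphate receptor, which takes up IGF2 and delivers it to lysosomes, and the IGF-binding proteins (IGFBPs) hold the ligands outside the cell and set how much reaches the receptor. Igf2 and H19 are neighbours that share enhancers, with Igf2 transcribed from the paternal and H19 from the maternal chromosome, and IGF2 made by the cells themselves is known as a driver of C2C12 differentiation.

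The genes lie on 6 chromosomes of mm10 (GRCm38), with coordinates from GENCODE release M21. H19 spans chr7:142575529-142578143 and Igf2 spans chr7:142650766-142666816, both on the minus strand and 72.6 kb apart. Igfbp2 spans chr1:72824503-72852474 on the plus strand and Igfbp5 spans chr1:72857932-72874884 on the minus strand, so that their 3′ ends face each other across 5.46 kb. The others are Igf1 at chr10:87858265-87937042, Igf1r at chr7:67952827-68233668, Igf2r at chr17:12682406-12769664, Igfbp3 at chr11:7206086-7213923, Igfbp4 at chr11:99041244-99054392 and Igfbp6 at chr15:102144362-102149511.

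Exon 1 of the main H19 transcript, H19-202, carries the microRNA miR-675. Its mature arms are shown because H19 was the most abundant of these RNAs, with the seed (bases 2 to 8) in capitals, from RefSeq on GRCm38.p6. The libraries were made from polyadenylated RNA, so mature microRNAs were not measured.
miR-675-5p (chr7:142577112-142577133, minus strand): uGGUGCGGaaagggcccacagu
miR-675-3p (chr7:142577078-142577099, minus strand): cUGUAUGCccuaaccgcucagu

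RefSeq promoter windows on GRCm38.p6 were found for 9 of the 10 genes. For Igf2 there were 4, and 99.2% of the counts assigned to Igf2 belonged to transcripts that begin within 50 bases of the start furthest downstream. The transcripts beginning within 50 bases of 2 of the other starts had 0 counts in every library. The remaining 1 has no annotated transcript within 50 bases, so its use could not be read from the counts, and Igf2-205, which begins upstream of it, had 36 counts in myotube replicate 2, 30 in reserve cell replicate 1 and 0 elsewhere. The 250 bases before that start are given below with those of Igfbp2 and Igfbp5, the neighbouring genes that fell in both Day 7 populations, and of Igfbp4, which rose most in reserve cells. At least 99.5% of the counts of each of these binding protein genes came from a transcript that begins within 50 bases of the start shown. Capitals mark 3 motifs, searched on both strands. The E-box, which myogenic factors among others can bind, was spelled CANNTG. The GC box, a common element of promoters, was spelled GGGCGG. The TATA box, an element just before many tissue-specific starts, was spelled TATAAA.
Igf2 (chr7:142657497-142657746, minus strand): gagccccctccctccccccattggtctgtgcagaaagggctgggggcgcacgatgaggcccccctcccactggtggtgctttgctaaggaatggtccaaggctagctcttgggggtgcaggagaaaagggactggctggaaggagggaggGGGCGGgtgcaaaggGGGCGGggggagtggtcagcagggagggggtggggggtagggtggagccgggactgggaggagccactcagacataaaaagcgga
Igfbp2 (chr1:72824230-72824479, plus strand): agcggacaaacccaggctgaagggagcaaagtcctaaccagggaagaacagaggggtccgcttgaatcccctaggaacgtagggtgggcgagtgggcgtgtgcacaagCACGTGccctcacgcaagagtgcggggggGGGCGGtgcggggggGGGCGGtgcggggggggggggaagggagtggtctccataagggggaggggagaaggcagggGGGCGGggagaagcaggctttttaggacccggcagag
Igfbp5 (chr1:72874866-72875115, minus strand): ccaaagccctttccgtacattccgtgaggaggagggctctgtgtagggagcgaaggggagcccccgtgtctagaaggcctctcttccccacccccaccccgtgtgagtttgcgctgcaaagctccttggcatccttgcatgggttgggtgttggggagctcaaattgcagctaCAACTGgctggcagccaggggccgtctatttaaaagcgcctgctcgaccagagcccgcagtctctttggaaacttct
Igfbp4 (chr11:99040994-99041243, plus strand): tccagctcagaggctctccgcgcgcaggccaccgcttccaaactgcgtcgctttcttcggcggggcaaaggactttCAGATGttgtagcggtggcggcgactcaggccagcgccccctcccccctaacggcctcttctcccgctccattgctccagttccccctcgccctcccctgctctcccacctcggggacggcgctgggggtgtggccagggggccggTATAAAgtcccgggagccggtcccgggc

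The Igf2 window held 2 GC boxes and neither of the other motifs. That of Igfbp2 held 1 E-box and 3 GC boxes, that of Igfbp5 held 1 E-box, and that of Igfbp4 held 1 E-box and a TATA box beginning 28 bases before the start. Across all 32851 RefSeq windows of this length, 66.2% held an E-box, 32.7% a GC box and 12.4% a TATA box, so an E-box in such a window is common. A match describes the letters only, and no binding was measured.

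The libraries held between 15658875 and 20055078 estimated counts. Levels of a gene are given in CPM, its share of a library's counts scaled with TMM factors. Levels of different genes within a library are compared in TPM, for which each count is first divided by the transcript's length. Differences were tested with edgeR's quasi-likelihood test over 15467 genes with Benjamini-Hochberg adjustment, and a gene was called when the adjusted p was below 0.05. A log2 fold change is followed by its standard error (SE). The replicates of a group differed by more than counting noise, which does not show that they were separate cultures. The summed level of 8 myotube genes (Myog, Ckm, Acta1, Tnnt3, Myh3, Mymk, Mb and Atp2a1) ran from 265 to 280.0 CPM in myoblasts and reached 24497 to 24547 CPM in myotubes. Reserve cells gave 7002 to 7083 CPM, so the reserve cell libraries carried muscle transcripts too. In these bulk samples, fewer cells of a type and less RNA per cell cannot be told apart.

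**Figure D1:**
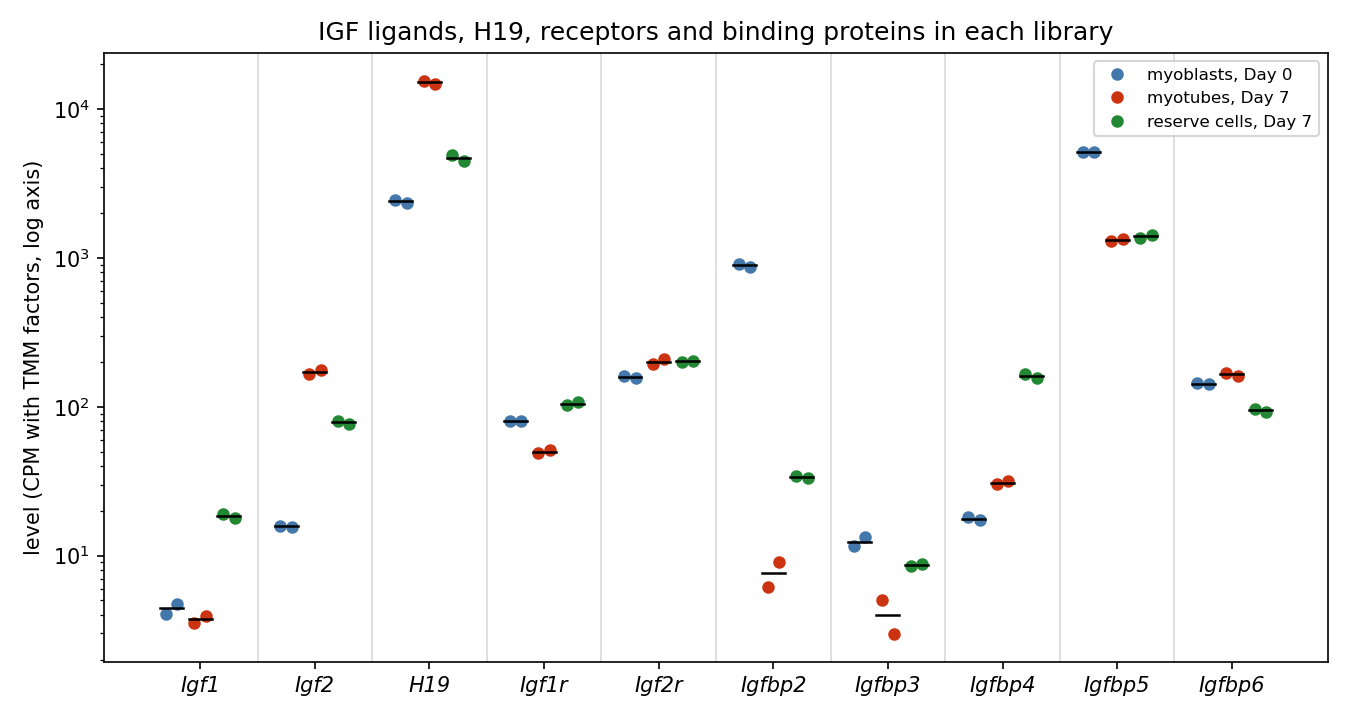
Level of each gene in each of the 6 libraries, in CPM with TMM factors on a log axis, where points are libraries, colours are groups and black bars are means of 2 libraries. H19 in myotubes is the highest level shown (14812 and 15475 CPM), and Igfbp2 shows the widest gap between groups.

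Myotubes were compared with myoblasts to ask how the family changes on differentiation. Transcripts for the ligand Igf2 and for H19 rose, those for Igfbp2, Igfbp5, Igfbp3 and Igf1r fell, and Igfbp4, Igf2r and Igfbp6 rose by less than a factor of 2. Of the 10 genes, 9 were called, 5 higher and 4 lower, beside 65.3% of all genes tested (32.6% higher and 32.7% lower). The median size of the log2 difference was 1.22 over the 10 genes and 0.78 over all genes. In reserve cells over myoblasts, 9 of the 10 were called, 6 higher and 3 lower, beside 46.1% of all genes (24.3% higher and 21.8% lower), with a median size of 1.42 against 0.42. In myotubes over reserve cells, 8 were called, 3 higher and 5 lower, beside 55.6% of all genes (27.2% higher and 28.4% lower), with a median size of 1.13 against 0.57. With the filter raised to 10 CPM in 2 libraries, which all 10 members passed, 9, 9 and 8 of them were called. Of the 10394 genes that passed it, 8145, 6211 and 7430 were called in the same order. These comparisons share libraries, so they are not independent. With library totals in place of TMM factors, the share of calls over all genes that were higher moved from 49.96% to 36.6%, from 52.7% to 45.6% and from 48.8% to 34.1% in the same order, and the median of all genes moved to -0.27, -0.06 and -0.21.

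**Figure D2:**
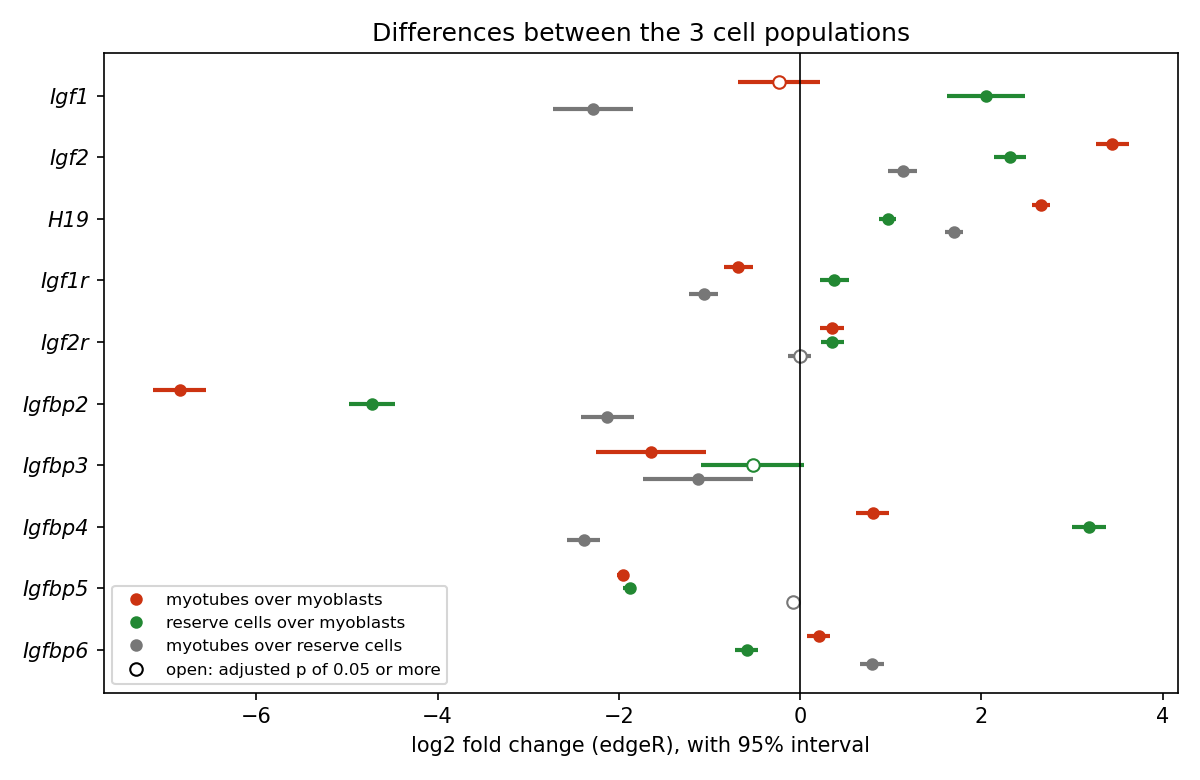
Log2 fold change of each gene in the 3 comparisons (points, edgeR) with its 95% interval (lines), where open points were not called. Igf1r and Igfbp6 lie on opposite sides of 0 in myotubes and reserve cells, and Igf2r in myotubes over reserve cells lies at 0.

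Igf2, the ligand that C2C12 cells supply to themselves, stood at 15.9 and 15.7 CPM in the myoblast libraries, 166 and 177 CPM in the myotubes and 80.7 and 76.3 CPM in the reserve cells. No 2 groups overlapped, and the order was myoblasts, reserve cells, myotubes. Igf2 was 10.9-fold higher in myotubes than in myoblasts (log2 fold change 3.44, SE 0.08, edgeR adjusted p = 4.5e-09) and 4.97-fold higher in reserve cells (2.31, SE 0.08, edgeR adjusted p = 9.3e-08). Myotubes exceeded reserve cells by 2.19-fold (95% interval 1.96 to 2.45, edgeR adjusted p = 3.1e-06). At least 98.1% of its counts in each library were assigned to the transcript Igf2-201, whose promoter window is given above.

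H19, an imprinted noncoding RNA, was the member with the most transcripts per length in every group. Its level was 2450 and 2347 CPM in myoblasts, 15475 and 14812 CPM in myotubes and 4879 and 4482 CPM in reserve cells. It took 1.39% and 1.32% of all counts in the myotube libraries and ranked 2nd of all genes by counts there. H19 rose 6.31-fold in myotubes (log2 2.66, SE 0.04, edgeR adjusted p = 7.3e-10) and 1.95-fold in reserve cells (0.96, SE 0.04, edgeR adjusted p = 4.9e-07), and was 3.24-fold higher in myotubes than in reserve cells. The order of the groups was thus that of Igf2, but the sizes differed. The ratio of H19 to Igf2 in TPM was 250.5 and 247 in myoblasts, 153 and 140.3 in myotubes and 101 and 96.7 in reserve cells, so it was lower in both Day 7 populations. The ratio did not overlap between groups, although an exact permutation test of 2 libraries against 2 cannot give a two-sided p below 0.333. The myotube markers named above had the same order of groups, and their part in the levels of Igf2 and H19 in reserve cells was not tested.

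Igf1, the second ligand, followed another course. Its counts were low, at 70 and 103 in myoblasts, 50 and 68 in myotubes and 376 and 345 in reserve cells, or 4.08 and 4.74 CPM, 3.55 and 3.95 CPM, and 18.9 and 17.9 CPM. Reserve cells stood apart from both other groups, 4.16-fold above myoblasts (log2 2.06, SE 0.19, edgeR adjusted p = 4.3e-05) and 4.89-fold above myotubes (edgeR adjusted p = 1.8e-05). Myotubes and myoblasts were not called different (log2 -0.23, 95% interval -0.69 to 0.22, edgeR adjusted p = 0.325), except with library totals (-0.51, adjusted p = 0.0469). Igf2 supplied 88.4% and 83.4% of the summed ligand TPM in myoblasts, 98.9% and 98.4% in myotubes and 86.7% and 84.6% in reserve cells. Igf2 was therefore the main ligand transcript in all 6 libraries, by the widest margin in myotubes.

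The receptors moved little by comparison. Igf1r, which encodes the signalling receptor, stood at 80.3 and 80.2 CPM in myoblasts, 48.7 and 51.1 CPM in myotubes and 102 and 107 CPM in reserve cells, and the groups did not overlap. It fell 1.61-fold in myotubes (log2 -0.68, SE 0.07, edgeR adjusted p = 3.7e-05) and rose 1.30-fold in reserve cells (0.38, SE 0.07, edgeR adjusted p = 0.0022), which left myotubes 2.09-fold below reserve cells (95% interval 1.87 to 2.33, edgeR adjusted p = 4.2e-06).

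Igf2r, which encodes the clearing receptor, stood at 160 and 156 CPM in myoblasts, 192 and 209.5 CPM in myotubes and 199.9 and 204 CPM in reserve cells. It was 1.28-fold higher in each Day 7 population than in myoblasts (log2 0.35, SE 0.06, edgeR adjusted p = 0.0006 in myotubes, and 0.36, SE 0.06, adjusted p = 0.001 in reserve cells). With library totals the rise in myotubes was no longer called (log2 0.07, edgeR adjusted p = 0.263). In CPM the Day 7 populations overlapped each other, and the 95% interval of their log2 difference ran from -0.13 to 0.12. Library totals, however, gave a call (-0.21, edgeR adjusted p = 0.0097). In TPM Igf2r stood at 44.4 and 43.4 in myoblasts, 41.0 and 44.0 in myotubes and 54.2 and 56.1 in reserve cells. On that scale the Day 7 populations did not overlap, and myotubes did not stand above myoblasts. Within a library, the TPM of Igf2r was 2.40 and 2.34 times that of Igf1r in myoblasts, 4.85 and 4.91 times in myotubes, and 2.44 and 2.27 times in reserve cells. The ratio was thus highest in myotubes, and in reserve cells it overlapped the myoblast values. Airn, a noncoding RNA antisense to Igf2r, had at most 1.13% of the counts of Igf2r in any library, and whether reads were counted by strand is not given.

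Among the binding proteins, Igfbp2, which encodes a carrier with an integrin-binding motif, changed most over myoblasts. It stood at 903 and 874 CPM in myoblasts, 6.18 and 9.07 CPM in myotubes and 34.5 and 33.0 CPM in reserve cells. It fell 115-fold in myotubes (95% interval 93.6 to 141, log2 -6.85, edgeR adjusted p = 1.6e-09) and 26.3-fold in reserve cells (22.1 to 31.4, log2 -4.72, edgeR adjusted p = 1.4e-08). Myotubes lay 4.37-fold below reserve cells (edgeR adjusted p = 2.3e-06). The gene went from rank 59 and 61 of all genes by TPM in myoblasts to rank 8801 and 7716 in myotubes.

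Its neighbour Igfbp5, whose product also binds the extracellular matrix, fell to nearly the same CPM in both Day 7 populations when scaled with TMM factors. In TPM it stood lower in myotubes (401 and 419) than in reserve cells (548 and 582). It stood at 5126 and 5142 CPM in myoblasts, 1305 and 1346 CPM in myotubes and 1364 and 1424 CPM in reserve cells. The fall was 3.87-fold in myotubes (log2 -1.95, SE 0.03, edgeR adjusted p = 5.0e-10) and 3.68-fold in reserve cells (-1.88, SE 0.03, edgeR adjusted p = 1.8e-09). Myotubes and reserve cells were not called different (log2 -0.07, 95% interval -0.14 to -0.01, edgeR adjusted p = 0.0651), although 5 of 13 alternative settings called it. Among these were library totals, with the largest difference (-0.28), and the fits without myotube replicate 2 (-0.10) and without reserve cell replicate 1 (-0.11). In myoblasts Igfbp5 had the 4th highest count of all genes. The summed level of 6 cycling markers (Top2a, Mki67, Ccna2, Cdk1, Ccnb1 and Birc5) fell as well, from 1763 to 1781 CPM in myoblasts to 134 to 139 CPM in myotubes and 683 to 697 CPM in reserve cells, and its part in the falls of Igfbp2 and Igfbp5 was not tested.

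Igfbp4, whose product restrains IGFs until the protease PAPPA cleaves it, rose most in reserve cells. It stood at 18.2 and 17.2 CPM in myoblasts, 30.1 and 31.5 CPM in myotubes and 167 and 155 CPM in reserve cells. The rise over myoblasts was 9.10-fold in reserve cells (95% interval 7.99 to 10.4, log2 3.19, edgeR adjusted p = 2.2e-08) and 1.74-fold in myotubes (log2 0.80, SE 0.08, edgeR adjusted p = 3.7e-05). Reserve cells exceeded myotubes by 5.23-fold (edgeR adjusted p = 9.2e-08). Igfbp4 and Igf1 were thus the members highest in reserve cells with fitted folds of 4.16 or more over both other groups.

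Markers of connective tissue moved with them in part. The summed level of 6 fibroblast markers (Pdgfra, Dcn, Thy1, Col1a1, Col3a1 and Lum) was 2186 to 2189 CPM in myoblasts, 529 to 540.0 CPM in myotubes and 2764 to 2855 CPM in reserve cells. Col3a1, a fibrillar collagen gene, made up most of each sum, with means of 2044, 449.6 and 2427 CPM in myoblasts, myotubes and reserve cells. In the same order the means were 112, 61.7 and 274 CPM for Col1a1, 13.4, 15.1 and 97.8 CPM for Dcn and 18.6, 8.18 and 10.1 CPM for Pdgfra, so Pdgfra had its highest mean in myoblasts, and the other 3 theirs in reserve cells, and Thy1 and Lum stayed below 1 CPM in all libraries. Their part in the levels of Igf1 and Igfbp4 was not tested. The 6 reserve cell markers (Pax7, Myf5, Notch3, Hes1, Hey1 and Cd34) summed to 538 to 541 CPM in reserve cells, 542 to 561 CPM in myoblasts and 129.7 to 130.1 CPM in myotubes. Most of the sum in myoblasts and reserve cells was Notch3, with means of 320.2 and 343 CPM there, and the markers did not move together between these groups, with means of 56.8 and 20.7 CPM for Myf5, 24.3 and 6.35 CPM for Hey1, and 32.1 and 49.2 CPM for Cd34. Of 16 markers of adipocytes, macrophages and endothelium, 13 stayed below 1 CPM in all libraries.

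Igfbp3, which encodes the main IGF carrier of serum, was scarce, at 11.6 and 13.3 CPM in myoblasts, 5.04 and 2.96 CPM in myotubes and 8.57 and 8.75 CPM in reserve cells. It fell 3.13-fold in myotubes (log2 -1.65, SE 0.26, edgeR adjusted p = 0.00062), where it was also 2.18-fold below reserve cells (edgeR adjusted p = 0.0068). The difference of reserve cells from myoblasts was not called (log2 -0.52, 95% interval -1.09 to 0.04, edgeR adjusted p = 0.12), though 3 of 13 alternatives called it lower. These were the separate fit of the 4 libraries (log2 -0.52, edgeR adjusted p = 0.0335) and the fits without myotube replicate 1 or 2 (-0.52 and -0.53, adjusted p = 0.044 and 0.038), in which myotubes enter only through the shared spread.

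Igfbp6, whose product prefers IGF2, stood at 144 and 141 CPM in myoblasts, 169 and 161 CPM in myotubes and 97.0 and 92.8 CPM in reserve cells. It rose 1.15-fold in myotubes (log2 0.20, SE 0.06, edgeR adjusted p = 0.0115) and fell 1.51-fold in reserve cells (-0.59, SE 0.06, edgeR adjusted p = 5.8e-05), which left myotubes 1.74-fold above reserve cells (edgeR adjusted p = 6.9e-06). The rise in myotubes depended on scaling, since library totals gave -0.07 (edgeR adjusted p = 0.298), and it was no longer called without myoblast replicate 2 (0.18, adjusted p = 0.0843) or without myotube replicate 1 (0.16, adjusted p = 0.0695).

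Per length, the 5 binding protein genes together gave 4167 and 4126 TPM in myoblasts, 709 and 719 TPM in myotubes and 939 and 959 TPM in reserve cells. Myoblast libraries thus held a much larger binding protein pool than either Day 7 population. Igfbp5 made up 50.7% to 60.6% of this pool in every library. Igfbp2 made up 41.0% and 40.2% in myoblasts, 1.25% and 1.81% in myotubes and 6.82% and 6.46% in reserve cells. The share of Igfbp6 went from 7.71% and 7.65% in myoblasts to 39.5% and 37.5% in myotubes and 22.4% and 21.3% in reserve cells. These are shares of a smaller pool, since the TPM of Igfbp6 itself was 321 and 315 in myoblasts, 280.1 and 269.7 in myotubes and 210.3 and 205 in reserve cells. Igfbp4 reached 11.5% and 10.6% in reserve cells. Binding protein transcripts outnumbered ligand transcripts 338-fold and 322-fold in the myoblast libraries, 8.43-fold and 7.94-fold in myotubes and 15.5-fold and 16.0-fold in reserve cells. These are ratios of RNA within a library and do not measure protein.

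**Figure D3:**
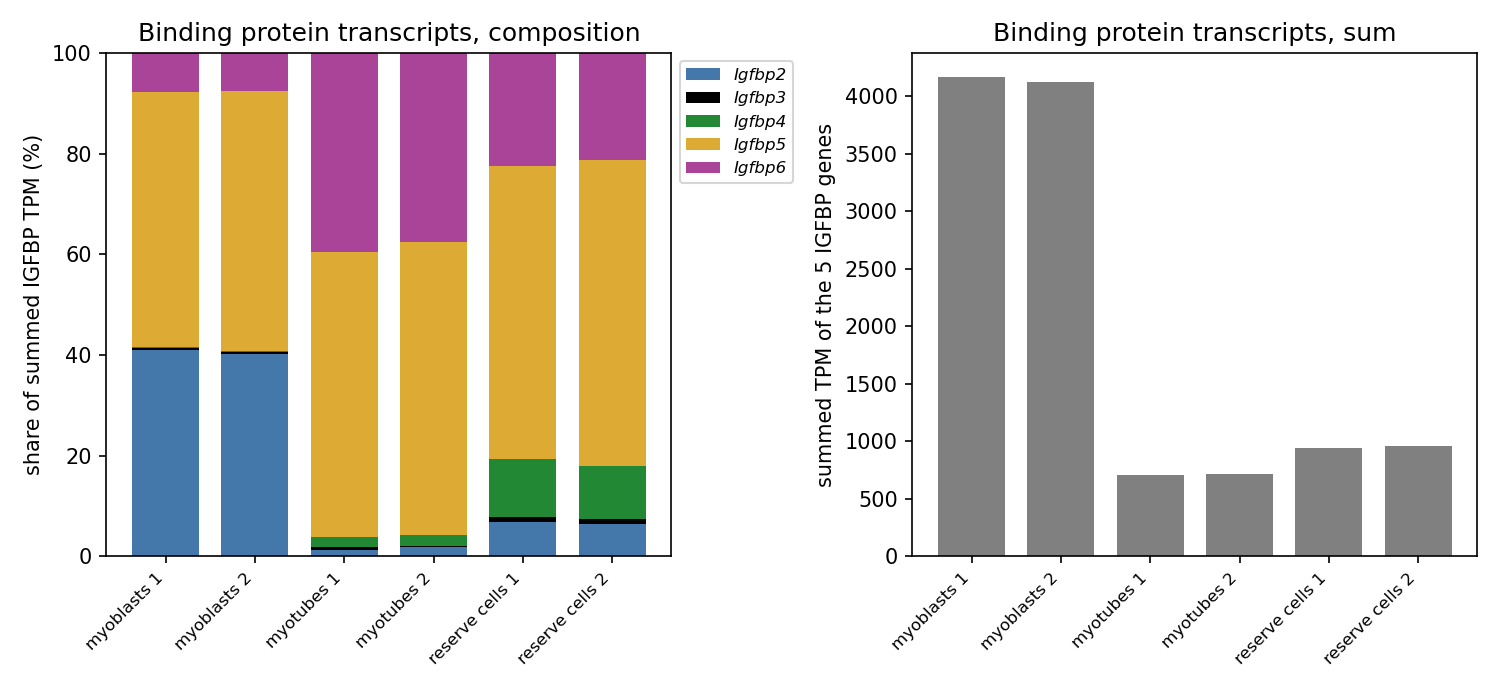
Left, share of each binding protein gene in their summed TPM, in percent, for each library. Right, the summed TPM of the 5 genes in each library (grey bars), which is 4126 or more in both myoblast libraries and 959 or less in the 4 Day 7 libraries.

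Ordered by TPM, the members ran H19, Igfbp5, Igfbp2, Igfbp6, Igf2r, Igf1r, Igfbp3, Igfbp4, Igf2 and Igf1 in myoblasts, where only Igfbp3 and Igfbp4 overlapped among neighbours in the order. In myotubes Igf2 stood 4th, with 83.1 and 89.1 TPM, above both receptors. In reserve cells Igfbp4 stood 4th, with 108 and 102 TPM, and Igf1 and Igfbp3 overlapped at the bottom. The neighbours that overlapped in myotubes were Igfbp2 and Igf1r.

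The members have 47 annotated transcripts, of which 36 had a count and 21 were tested. A single transcript carried at least 86.8% of a member's counts in every library. In myotubes over myoblasts 11 of the 21 were called, 6 higher and 5 lower, beside 20.2% of all 35501 transcripts tested. In reserve cells over myoblasts 8 were called beside 7.38%, and in myotubes over reserve cells 7 were called beside 10.7%. Besides these main forms, a coding transcript of Igf1 with 5 exons took up to 13.2% of the counts of that gene, on at most 35 counts. Transcript counts were assigned by StringTie among overlapping forms and are less certain than gene counts. Another gene on the same strand, Gm49394, overlaps Igf2 and had up to 6.58% as many counts, and the antisense Igf2os had up to 1.76%.

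The pathway around the members was described with a list of 38 other genes, of which 34 were tested. In myotubes over myoblasts 29 were called, 15 higher and 14 lower, with a median log2 of 0.09 beside 0.0045 for all genes. In reserve cells over myoblasts 21 were called, 16 higher and 5 lower, with a median of 0.24 beside 0.015. In myotubes over reserve cells 27 were called, 11 higher and 16 lower, with a median of -0.29 beside -0.0067. The shares called were 85.3%, 61.8% and 79.4%, beside 65.3%, 46.1% and 55.6% of all genes, and the calls went in both directions. The split by direction depended on scaling. Library totals gave 11 higher and 17 lower, 13 and 8, and 9 and 20 of the list in the same order. Over all 15467 genes they gave 3730 higher and 6458 lower, 3311 and 3957, and 2932 and 5670. The 5 lower calls in reserve cells over myoblasts became 2 without myoblast replicate 2 and 3 without any 1 of the other 3 libraries compared.

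Of 6 tested genes that control how much ligand is free, 4 were called lower and 1 higher in myotubes than in myoblasts, beside 32.7% lower and 32.6% higher of all genes. Pappa, the protease that cleaves IGFBP4, stood at 5.48 and 5.16 CPM in myoblasts, 0.426 and 0.291 CPM in myotubes and 3.93 and 4.04 CPM in reserve cells. It fell by 3.88 on the log2 scale in myotubes (SE 0.38, edgeR adjusted p = 2.8e-05) and was not called in reserve cells (log2 -0.42, adjusted p = 0.285). The related protease Pappa2 rose by 1.75 in myotubes (edgeR adjusted p = 0.0163) and 3.13 in reserve cells (adjusted p = 0.0012), from 0.233 and 0.553 CPM in myoblasts. It was also lower in myotubes than in reserve cells (log2 -1.37, edgeR adjusted p = 0.0302), a call that was lost without any 1 of those 4 libraries (log2 -1.52 to -1.23), and the rise in myotubes was lost without myoblast replicate 1 (log2 1.29, edgeR adjusted p = 0.0837).

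Htra1, a serine protease of the extracellular space, fell in myotubes (log2 -1.75, edgeR adjusted p = 2.0e-05), as did Igfbp7, a distant relative of the binding proteins (log2 -1.65, adjusted p = 1.3e-07). Igfbp7 rose in reserve cells (log2 0.79, edgeR adjusted p = 2.2e-05), and both genes were lower in myotubes than in reserve cells (log2 -1.87 for Htra1 and -2.44 for Igfbp7). Stc1, an inhibitor of PAPPA, was under 1.5 CPM in every library and was called lower in myotubes (log2 -2.10, edgeR adjusted p = 0.0386), a call lost under 7 of the 12 alternatives that could test it, among them the fits without 1 library other than myoblast replicate 1 (log2 -2.47 to -1.35). Igfbp1 had 0 counts in all 6 libraries, which allows up to 0.213 CPM in the shallowest, and Igfals, Grb10 and Igf2bp1 had 23, 35 and 6 counts in all and were not tested.

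Of the receptor-proximal adaptors, Irs1 and Irs2 encode the docking proteins of the IGF1 and insulin receptors. Irs1 stood at 334 CPM in both myoblast libraries, 100.03 and 116 CPM in myotubes and 330 and 350.4 CPM in reserve cells, and it was lower in myotubes than in both other groups (log2 -1.63 and -1.65, edgeR adjusted p = 2.0e-07 and 4.0e-07). Irs2 stood at 27.9 and 22.9 CPM in myoblasts, 15.5 and 14.2 CPM in myotubes and 83.0 and 77.0 CPM in reserve cells. It rose in reserve cells (log2 1.66, SE 0.10, edgeR adjusted p = 4.8e-06) and was lower in myotubes than in reserve cells (-2.43, adjusted p = 5.4e-07). Igf1r, Irs1 and Irs2 were thus all lower in myotubes than in reserve cells. The 7 tested receptor and docking genes of the list did not all go that way. In myotubes over reserve cells 2 of them were called higher and 3 lower, beside 27.2% and 28.4% of all genes. With library totals these counts were 1 and 4, beside 2932 and 5670 of all 15467 genes.

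The PI3 kinase, AKT and mTOR genes changed in both directions, with 8 higher and 5 lower of 14 in myotubes and 9 higher and 3 lower in reserve cells, beside 32.6% higher and 32.7% lower of all genes in myotubes and 24.3% and 21.8% in reserve cells. With library totals these counts were 6 and 6, and 6 and 4. Over all 15467 genes library totals gave 3730 higher and 6458 lower in myotubes, and 3311 and 3957 in reserve cells. Akt2, the AKT isoform of insulin-responsive tissues, rose in myotubes (log2 1.93, SE 0.05, edgeR adjusted p = 9.1e-09), from 129 and 140.1 CPM to 511 and 512 CPM, and was higher there than in reserve cells (log2 1.16, adjusted p = 3.4e-07). Mtor, its partner Rptor and the S6 kinase gene Rps6kb1 rose in myotubes (log2 1.04, 1.46 and 1.37), with edgeR adjusted p of 1.7e-06, 9.8e-08 and 8.7e-07. Reserve cells over myoblasts gave smaller rises for these genes (log2 0.22, 0.57 and 0.50) and for Akt2 (0.76), all called in the fit reported.

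All 5 FOXO and atrophy genes were called higher in myotubes over myoblasts and 4 of 5 in reserve cells over myoblasts, beside 32.6% and 24.3% of all genes. In myotubes over reserve cells 2 were called higher and 2 lower, beside 27.2% and 28.4% of all genes. With library totals 4 of 5 were called higher in each comparison over myoblasts, beside 3730 and 3311 of all 15467 genes. In myotubes over reserve cells library totals gave 2 higher and 3 lower, beside 2932 and 5670 of all genes. Trim63, a ubiquitin ligase of striated muscle that FOXO factors induce, stood at 1.05 and 0.921 CPM in myoblasts, 154 and 149 CPM in myotubes and 37.8 and 33.9 CPM in reserve cells (log2 7.27 and 5.18 over myoblasts, edgeR adjusted p = 8.0e-10 and 1.7e-08). Of the proteins that bind IGF2 mRNA, Igf2bp2 fell in myotubes (log2 -1.07, edgeR adjusted p = 3.1e-06). Reserve cells over myoblasts gave nearly the same fall (log2 -0.98, edgeR adjusted p = 1.3e-05). Myotubes over reserve cells was not called for this gene (log2 -0.09, edgeR adjusted p = 0.323). Igf2bp3, at 1.61 CPM or less in every library, was called lower in myotubes over myoblasts (log2 -1.82, edgeR adjusted p = 0.0298). That call was lost without either myoblast replicate (log2 -2.04 and -1.57) and without myotube replicate 2 (-1.48).

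**Figure D4:**
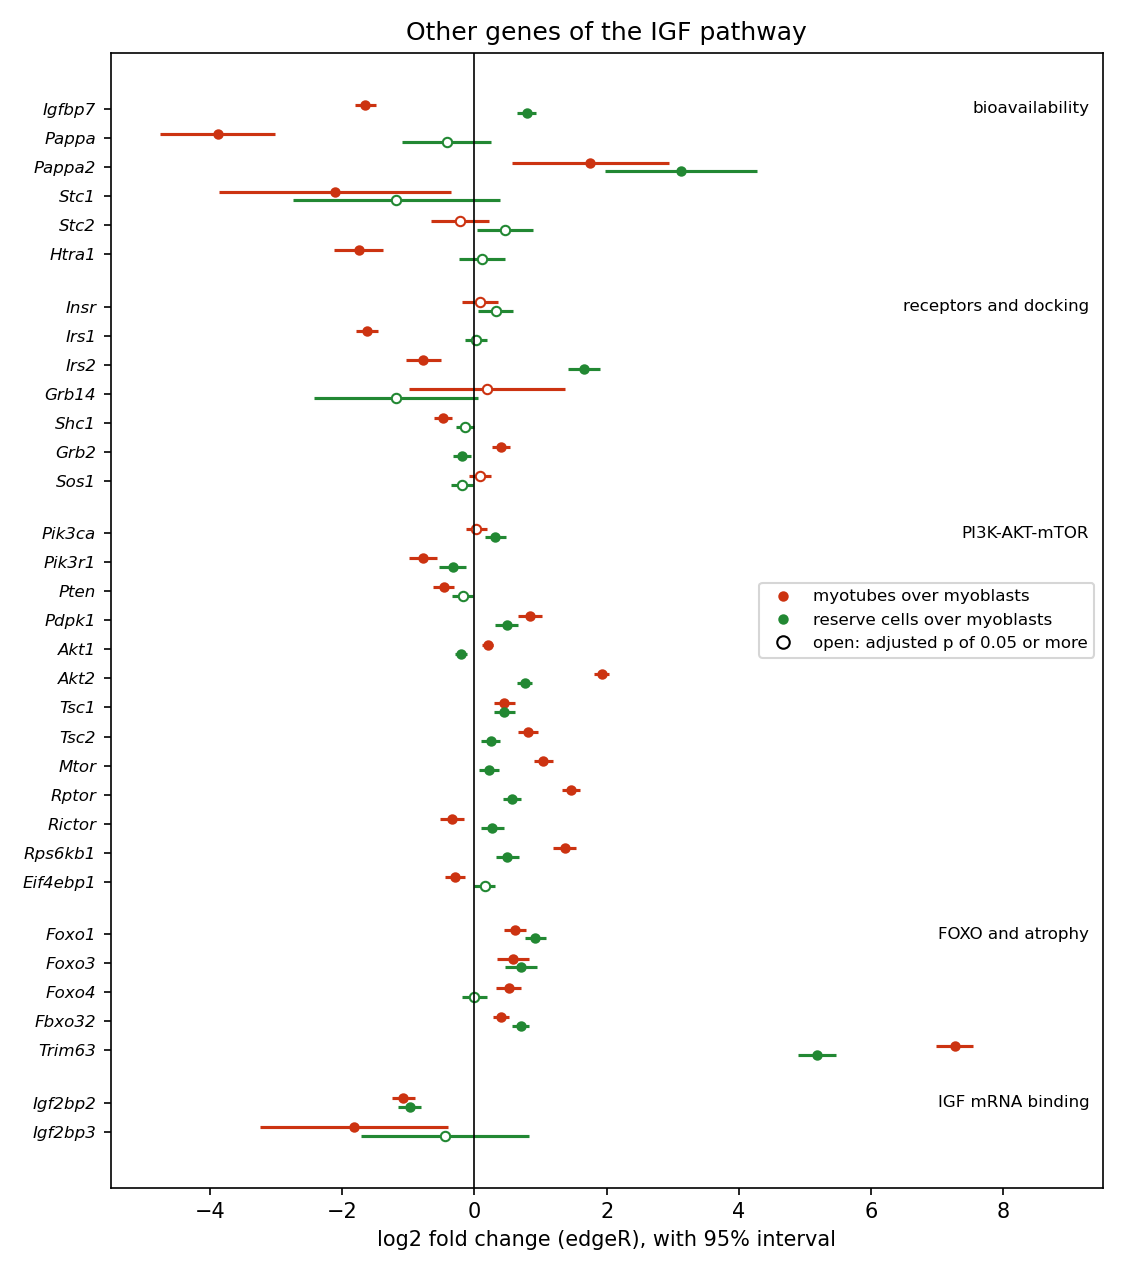
Log2 fold change over myoblasts of 33 of the 34 tested genes of the pathway list, in myotubes (red) and reserve cells (green), with 95% intervals, where open points were not called. Trim63 lies furthest to the right (7.27 and 5.18), and Irs2 and Igfbp7 are among the genes on opposite sides of 0 in the 2 populations.

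Genes whose pattern over the 6 libraries was most like that of a member were found as those with the smallest root-mean-square difference of centred log2 CPM among up to 9387 genes of at least 10 CPM. The nearest to Igf2 was Myog, which encodes the myogenic factor myogenin, at a distance of 0.044, followed by Dhcr7 (0.11) and Synpo2 (0.12). The mean level of Myog was 103, 1152 and 517 CPM in myoblasts, myotubes and reserve cells. Nearest to H19 were Gyg (0.032), Bin1 (0.040) and Serpinb1a (0.064). Those of Igf1 were Col8a1 (0.096), Colec12 (0.10) and Serping1 (0.10), and those of Igfbp4 were Thbs1 (0.12), Inhbb (0.14) and Cdh6 (0.20).

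The lists of the other members held Chd9, Sardh and Wwc2 for Igf1r (0.034 to 0.041), Arnt, Tars and Nf2 for Igf2r (0.021 to 0.028), and Ildr2, Limk1 and Bex3 for Igfbp5 (0.063 to 0.086). For Igfbp6 they were Nceh1, Ctsl and Pde6d (0.045 to 0.051), and for Igfbp3 they were Tipin, Kat14 and Rab23 (0.11 to 0.14). Igfbp2 had no near neighbour by this measure, since Aqp1, Akap12 and Gap43 were closest at 0.37 to 0.50. The libraries form 3 groups, so such distances describe mostly the order of the groups and the sizes of the differences between them. Shared regulation was not tested.

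Among other imprinted growth regulators, Mest fell in myotubes (log2 -2.11, edgeR adjusted p = 5.8e-08) and rose in reserve cells (0.33, adjusted p = 0.005). In reserve cells Peg3 fell (log2 -1.13, edgeR adjusted p = 1.9e-06) and Cdkn1c rose (log2 1.18, adjusted p = 0.0044). Both were called in the same directions in myotubes (-0.19 and 0.79, edgeR adjusted p = 0.0229 and 0.0198). The myotube call of Peg3 was lost without myoblast replicate 2 (log2 -0.16) or myotube replicate 1 (-0.13). That of Cdkn1c was lost with library totals (0.52) and without myoblast replicate 1 (0.64) or myotube replicate 1 (0.42). Plagl1 was not called in any comparison, and Dlk1 and Meg3 had 0 counts in all libraries.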

How the data were processed

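The authors sequenced polyadenylated RNA as paired 150-base reads and used HISAT2 for alignment to mm10, SAMtools for filtering and StringTie for quantification. The deposited files hold, for each library, an estimated count per transcript in whole numbers. DESeq2 is the tool the study names for differential expression. Program versions and their gene annotation were not given in the sources used here. A deposited table of the whole series repeats these libraries and was left aside.

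Transcripts were paired with genes through GENCODE release M21 (141374 of 142604, with 0.375% to 0.872% of a library's counts unpaired) and summed. All 6 libraries, with totals from 15658875 to 20055078, entered 1 quasi-likelihood fit in edgeR 4.0.16 (R 4.3.3), after filterByExpr at a minimum count of 10 and scaling by TMM. Adjustment was by Benjamini-Hochberg over all 15467 genes, with a threshold of 0.05. Intervals cover 95% and were derived for each gene from the quasi-likelihood test. The common biological coefficient of variation over all genes was 12.9%. Transcripts were fitted in the same way. The procedure was tested on simulated data. The study calls the 2 libraries of a group biological replicates.

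The text names the 10 members in every comparison, the pathway genes called with a log2 fold change of at least 1 or at 0 counts, and the 3 genes nearest in pattern to each member. Other genes were named only as members of their list, and 1 gene of the pathway list that the rule names is counted but not reported here. The members, lists and motifs were chosen with earlier results of these data known. As alternatives, DESeq2 1.42.0, RLE factors, plain library totals, the replicate number as a block, and fits of only the 4 libraries compared were tried. The filter was dropped or raised to 10 CPM in 2 libraries, and each library was left out in turn.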

Additional observations from a re-analysis of the deposited data

Results flagged for a closer look

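Igf1r and Igfbp6 were called in opposite directions over myoblasts in the 2 Day 7 populations, and the difference between these populations was itself tested. Igf1r fell in myotubes (log2 -0.68) and rose in reserve cells (0.38), and myotubes over reserve cells gave -1.06 (SE 0.07, edgeR adjusted p = 4.2e-06). Igfbp6 rose in myotubes (0.20) and fell in reserve cells (-0.59), and myotubes over reserve cells gave 0.80 (SE 0.06, edgeR adjusted p = 6.9e-06). The rise of Igfbp6 in myotubes was not called with library totals (log2 -0.07). In TPM Igfbp6 stood lower in myotubes (280.1 and 269.7) than in myoblasts (321 and 315). The comparisons share the myoblast libraries. With 2 libraries a group, no library could be tested for standing apart from its group.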

How the results depend on the processing

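Over the 10 genes, 3 comparisons and 13 alternatives, 373 of 390 fold changes kept their direction and their side of the threshold, 3 lost the call, 10 gained it and 4 changed sign. Igfbp6 in myotubes over myoblasts turned to -0.073 with library totals. Igf2r in myotubes over reserve cells, not called in the fit reported, was 0.034 with DESeq2 and 0.033 with RLE factors, and ranged from -0.074 to 0.050 with 1 library left out. With library totals the median of all genes shifts by construction of the scaling, and the calls of members it moved are given in the report. The counts of members and of pathway genes called, both directions together, stayed within 1.5 times the reported count under all 13 alternatives, and the splits by direction that moved are given in the report. Called member transcripts fell from 11 to 6 with the replicate block in myotubes over myoblasts. With 1 library left out they ranged from 5 to 8 there (5 without myoblast replicate 2, 6 without myoblast replicate 1, 7 without myotube replicate 2), from 5 to 6 in reserve cells over myoblasts (5 without any 1 of its 4 libraries) and from 4 to 7 in myotubes over reserve cells (4 without reserve cell replicate 2). Fewer samples enter those fits. Of 422 fold changes of the pathway and imprinted genes named by rule, 402 kept their call, and the losses that touch a named call are given in the report. Libraries with the same replicate number did not deviate together (correlations of 0.0022, 0.040 and -0.032 across genes), so the replicate block pairs them by number only, and it changed no call of a member besides Igfbp5 in myotubes over reserve cells (-0.07, edgeR adjusted p = 0.0269). Igf1 and Igfbp3 rest on 50 to 376 and 51 to 288 counts a library, so only large differences in them were detectable.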
